A study of Rattus norvegicus with 4 samples.

Results

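GABA-A receptor subunit genes were examined in single-nucleus RNA-seq of rat nucleus accumbens, in 7 genes that were chosen by name: the α subunits Gabra2, Gabra3, Gabra4 and Gabra5, the β subunits Gabrb1 and Gabrb2, and the γ subunit Gabrg3. Each symbol stood once among the 30560 genes of the deposited feature lists, next to 11 other GABA-A subunit genes. The rats were Sprague-Dawley, 90 to 120 days old, and were injected intraperitoneally on each of 7 days with saline or with cocaine at 20 mg per kg, with tissue taken 1 hour after the last injection. Every library combined a 2 mm punch from each of 4 rats, so the 4 libraries (saline female, saline male, cocaine female and cocaine male) give 2 libraries per treatment, 1 of each sex, from 16 rats. The labels name no transgene or other agent, and the saline rats are the only controls. The series asks how subpopulations of D1 medium spiny neurons respond to cocaine.

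GABA-A receptors are chloride channels assembled from α, β and usually γ or δ subunits around a central pore. GABA binds between α and β subunits, and classical benzodiazepines bind between a γ subunit and certain α subunits, α2, α3 and α5 among them. The α4 subunit often assembles with δ outside synapses, where it carries tonic inhibition and lacks the classical benzodiazepine site. In the nucleus accumbens, medium spiny neurons (MSN) are themselves GABAergic and receive GABA from each other and from local interneurons, and astrocytes carry GABA-A receptors as well. Single-nucleus counts measure RNA in the nucleus, not receptor protein.

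Several members lie beside other subunit genes on their chromosome. In the RefSeq gene order of assembly GRCr8, Gabrb1, Gabra4, Gabra2 and Gabrg1 follow each other on chromosome 14, with 1 other coding gene before Gabra2, and Gabrg3 and Gabra5 are neighbours on chromosome 1, while Gabrb2 lies on chromosome 10 and Gabra3 on the X chromosome. RefSeq promoters were matched for 6 of the 7 members; Gabra2 was not matched. Gabra4 and Gabrb1 are neighbours that run in opposite directions and were highest in different cell classes. Their profiles over the classes were still correlated (Pearson r = 0.87). Gabrb1 and Gabrb2 share a motif. The 250 bases before the start of these 3 members are therefore shown. They are Gabra4 (GRCr8, chr14:36944497-36944746, plus strand), Gabrb1 (chr14:36902894-36903143, minus strand) and Gabrb2 (chr10:27439543-27439792, plus strand), written 5′ to 3′ along the gene. Capitals mark matches to the NRF1 motif, which is the last 10 bases of TGCGCATGCGC, or to the Egr motif GCGNGGGCG.
Gabra4: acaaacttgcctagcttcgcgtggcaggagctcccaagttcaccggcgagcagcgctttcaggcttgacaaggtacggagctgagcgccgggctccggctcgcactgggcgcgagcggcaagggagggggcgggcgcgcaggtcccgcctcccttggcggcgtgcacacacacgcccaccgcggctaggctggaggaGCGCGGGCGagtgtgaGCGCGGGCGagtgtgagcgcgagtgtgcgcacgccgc
Gabrb1: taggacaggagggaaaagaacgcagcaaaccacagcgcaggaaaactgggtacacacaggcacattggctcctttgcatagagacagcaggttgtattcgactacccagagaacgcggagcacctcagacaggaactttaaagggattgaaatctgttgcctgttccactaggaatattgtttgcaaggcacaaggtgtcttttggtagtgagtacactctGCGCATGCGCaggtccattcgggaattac
Gabrb2: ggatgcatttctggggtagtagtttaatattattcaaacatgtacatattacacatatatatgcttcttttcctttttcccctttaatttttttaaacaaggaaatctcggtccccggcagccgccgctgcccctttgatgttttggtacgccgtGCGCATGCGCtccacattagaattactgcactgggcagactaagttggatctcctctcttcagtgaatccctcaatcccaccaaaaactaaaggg
The NRF1 motif, which reads the same on both strands, began 29 bases before the start of Gabrb1 and 95 bases before that of Gabrb2, and was found in 0.849% of the 27457 promoters of this length. With 1 base before it, the match formed the single stretch of at least 10 bases that the Gabrb1 and Gabrb2 windows had in common, TGCGCATGCGC. In Gabra4, Egr matches began 53 and 37 bases before the start, and 4.53% of promoters held at least 1. The other motifs were searched on both strands too, and no match named here overlaps another. TATAAA (13.1% of promoters) was found in Gabra3, and GGGCGG (32.4%) in Gabra4, Gabra5 and Gabrg3. TGACGTCA (1.70%) and TGANTCA (6.36%) were in none of the 6 windows. GC content ranged from 40.4% in Gabra3 to 78.0% in Gabrg3, against a median of 52.0% over all promoters. The NRF1 motif was added to the search after the Gabrb1 and Gabrb2 sequences had been read, so its presence in both is how it was chosen. A match is a description of the sequence alone.

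The libraries held 6213 to 7265 barcodes with 31484217 to 40737786 UMIs, and a median of 4363 to 5066 UMIs per barcode. After filters and removal of likely doublets, 24843 of 26228 nuclei remained. Pairs of libraries shared 10 to 18 barcode sequences. Clustering without the subunit genes gave 23 clusters, named from marker genes and called "X-like". Of 13 named classes, 11 had at least 25 nuclei in every library: D1-MSN-like (855 to 1377 nuclei), D2-MSN-like (754 to 1106), eccentric MSN-like (437 to 523), other GABAergic-like, Pvalb/Pthlh-like (107 to 148), Sst-like (39 to 71), glutamatergic-like (30 to 252), astrocyte-like, oligodendrocyte precursor-like, oligodendrocyte-like and microglia-like nuclei. Summed D1 markers reached 755 to 900 CPM in D1-MSN-like nuclei and summed D2 markers 1378 to 1705 CPM in D2-MSN-like nuclei. Eya1, listed as a D1 marker, was instead at 331 CPM in astrocyte-like nuclei and at most 0.328 CPM in an MSN class. Pvalb was not among the listed symbols, and the summed Pvalb/Pthlh markers stood at 337 to 435 CPM in the class named for them but at 536 to 723 CPM in oligodendrocyte-like nuclei. The Sst-like sums also carried the general MSN markers at 2644 to 3923 CPM, against 5943 to 6460 CPM in D1-MSN-like nuclei, and their part in Sst-like values was not tested. The other GABAergic-like class is a single cluster of 1874 nuclei with none of its 5 markers among its 10 leading genes, which Zfp804b, Stac and Prlr head. Those markers summed to a mean of 600 CPM there, below the 645 CPM of D2-MSN-like, the 723 CPM of eccentric MSN-like and the 1111 CPM of Pvalb/Pthlh-like nuclei. At the finer resolution of 1.0, 1826 of its nuclei formed a cluster that stayed unnamed. The eccentric MSN-like class split there into 1031 nuclei in a cluster led by Chst9 and Grm8 and 923 in one led by Casz1. Its levels are given for both together. Levels are UMIs per 1000000 UMIs of a class in a library (CPM) and are compared for 1 gene at a time, since the genes differ in length. Single libraries are given for saline first and then cocaine, the female before the male library of each. In each of the 11 classes the median UMIs per nucleus were lower with cocaine than with saline in both sexes. In D1-MSN-like nuclei they were 9870 and 7292 with saline and 7826 and 6662 with cocaine. Ranges are over the 4 libraries, and classes are called apart where these do not overlap. Classes were made from the same nuclei, so such differences are descriptions without a test.

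The α genes were distributed in 4 different ways. Gabra2, an α subunit of many synaptic receptors, was highest in Sst-like nuclei, at 379 and 611 CPM with saline and 616 and 628 CPM with cocaine. The saline female library, with 39 Sst-like nuclei, was the low one, and its value lay within the D2-MSN-like range of 354 to 393 CPM. D1-MSN-like nuclei held 335 to 348 CPM, just below D2-MSN-like nuclei and apart from them, and astrocyte-like nuclei 283 to 346 CPM, which overlapped D1-MSN-like nuclei. Eccentric MSN-like (254 to 279 CPM) and other GABAergic-like nuclei (247 to 300 CPM) did not differ beyond their spread, and Pvalb/Pthlh-like nuclei were lower than both at 141 to 218 CPM. Glutamatergic-like nuclei had the lowest mean among neurons, with a range of 89.7 to 145 CPM that overlapped that of Pvalb/Pthlh-like nuclei.

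Gabra3, an α subunit best known from monoaminergic and reticular thalamic neurons, was highest outside the D1 and D2 classes. Its level in other GABAergic-like nuclei was 120 and 122 CPM with saline and 106 and 109 CPM with cocaine. Eccentric MSN-like nuclei followed at 97.5 to 123 CPM, within the spread of the first, and both stood apart from every other class. The glutamatergic-like (68.0 to 78.9 CPM), oligodendrocyte precursor-like (49.5 to 88.9 CPM) and Pvalb/Pthlh-like values (56.2 to 70.7 CPM) overlapped. D2-MSN-like (41.9 to 51.4 CPM), Sst-like (30.5 to 47.0 CPM) and D1-MSN-like nuclei (28.5 to 44.9 CPM) overlapped in turn at the low end of the neurons. Eccentric MSN-like nuclei held 2.99 times the mean Gabra3 level of D1-MSN-like nuclei. In astrocyte-like nuclei only 6 Gabra3 UMIs were counted in all.

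Gabra4, the α subunit of extrasynaptic striatal receptors, was highest in the 3 MSN-like classes. Its order was D2-MSN-like (559 to 585 CPM), D1-MSN-like (487 to 513 CPM), eccentric MSN-like (356 to 402 CPM) and Pvalb/Pthlh-like nuclei (195 to 229 CPM), and each of these 4 stood apart from the next. Glutamatergic-like (138 to 194 CPM), astrocyte-like (110 to 156 CPM), other GABAergic-like (113 to 157 CPM) and Sst-like nuclei (89.8 to 122 CPM) followed, each overlapping its neighbour in this order, while the glutamatergic-like and Sst-like ranges were apart. The Sst-like mean of 109 ± 13.7 CPM (SD, n = 4) was 18.9% of the D2-MSN-like mean. Gabra2 and Gabra4, which lie close together on chromosome 14, had different ranks in Sst-like nuclei, where Gabra2 was first and Gabra4 eighth of the 11 classes.

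Gabra5, known for tonic inhibition in hippocampal pyramidal neurons, was sparse. Its highest mean was in glutamatergic-like nuclei, at 73.8 and 28.2 CPM with saline and 33.0 and 52.9 CPM with cocaine. That spread covered the other GABAergic-like values of 32.7 to 45.0 CPM and the D1-MSN-like values. D1-MSN-like nuclei (34.2 to 37.1 CPM) stood above D2-MSN-like nuclei (25.9 to 29.9 CPM), the reverse of Gabra2 and Gabra4. Eccentric MSN-like nuclei (20.2 to 26.4 CPM) stood above the Sst-like and Pvalb/Pthlh-like nuclei, and the highest glial mean was 1.10 CPM.

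**Figure D1:**
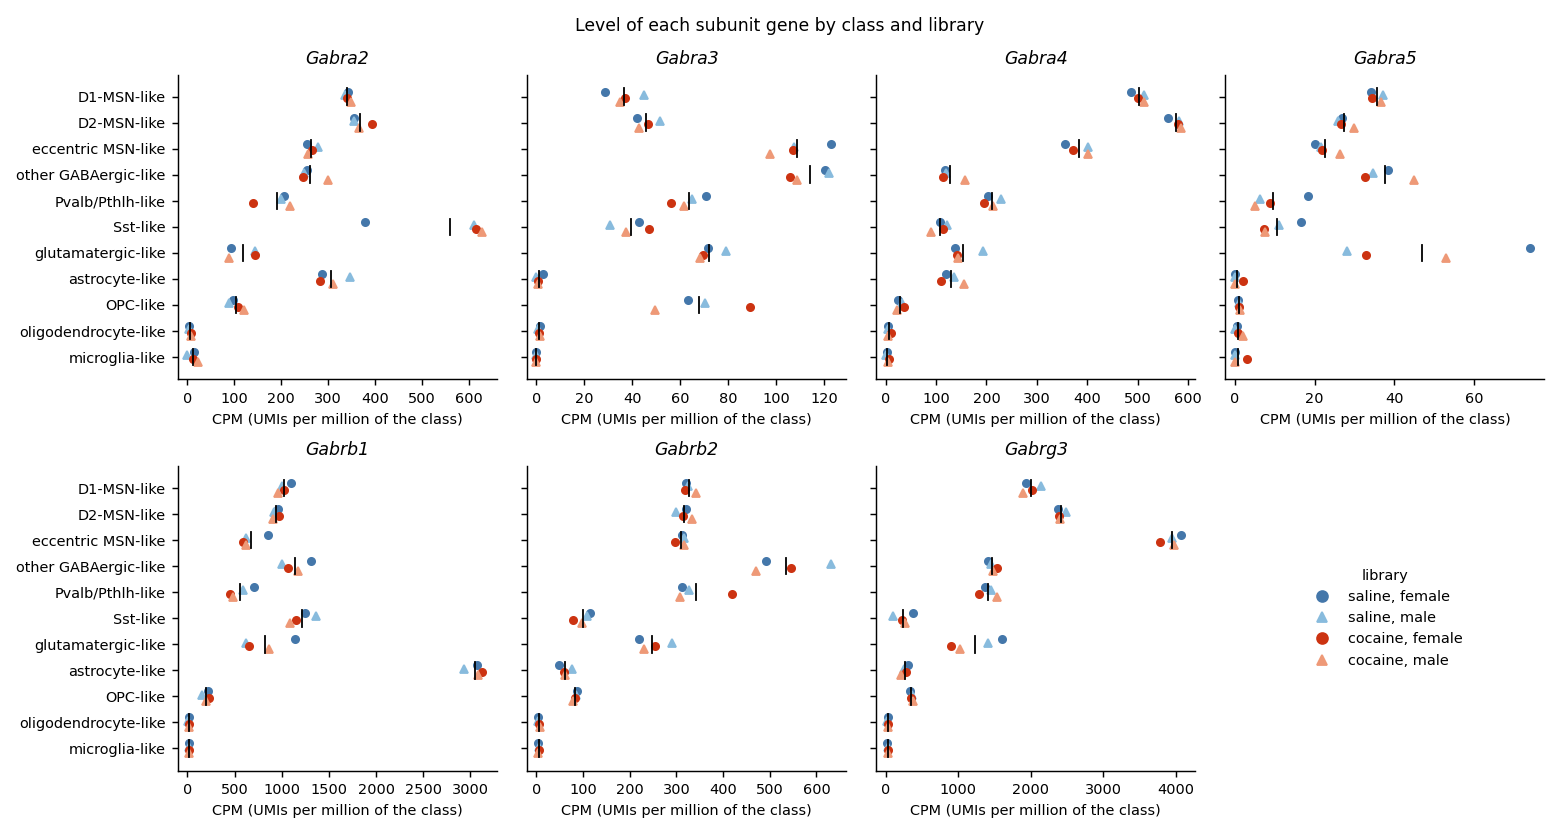
Level of each of the 7 subunit genes (x axis, CPM, starting at 0, with its own scale per gene) in 11 classes of nuclei (y axis). Points are the 4 libraries, coloured by treatment with circles for females and triangles for males, and black lines are means. Gabrb1 peaks in astrocyte-like nuclei (2928 to 3127 CPM), Gabra4 in D2-MSN-like nuclei (559 to 585 CPM) and Gabrg3 in eccentric MSN-like nuclei (3784 to 4063 CPM).

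The β genes separated astrocyte-like from neuron-like nuclei. Gabrb1 was highest in astrocyte-like nuclei, at 3066 and 2928 CPM with saline and 3127 and 3086 CPM with cocaine, 2.52 times the mean of the next class. All 4 values lay far above every neuron-like value. Sst-like (1088 to 1369 CPM), other GABAergic-like (999 to 1315 CPM), D1-MSN-like (957 to 1102 CPM), D2-MSN-like (912 to 972 CPM) and glutamatergic-like nuclei (620 to 1136 CPM) overlapped neighbour by neighbour. Eccentric MSN-like nuclei ranged from 590 to 851 CPM and Pvalb/Pthlh-like nuclei from 453 to 706 CPM, which overlapped too.

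Gabrb2, a β subunit of many fast synaptic receptors, was highest in other GABAergic-like nuclei, at 493 and 632 CPM with saline and 545 and 470 CPM with cocaine. Pvalb/Pthlh-like (307 to 420 CPM), D1-MSN-like (318 to 343 CPM), D2-MSN-like (299 to 333 CPM) and eccentric MSN-like nuclei (297 to 317 CPM) did not differ from their neighbours in this order beyond their spread. Sst-like nuclei were the exception among neurons, at 79.1 to 115 CPM, which overlapped oligodendrocyte precursor-like nuclei. Astrocyte-like nuclei held 47.6 to 77.1 CPM. Gabrb1 accordingly made up 98.0% ± 0.431 (SD, n = 4) of the UMIs of both β members in astrocyte-like and 92.4% ± 0.928 in Sst-like nuclei, against 75.8% ± 1.61 in D1-MSN-like and 61.6% ± 7.37 in Pvalb/Pthlh-like nuclei.

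Gabrg3, one of the less studied γ subunits, followed the MSN classes. Eccentric MSN-like nuclei held 4063 and 3942 CPM with saline and 3784 and 3976 CPM with cocaine. D2-MSN-like (2369 to 2487 CPM) and D1-MSN-like nuclei (1888 to 2145 CPM) followed, each apart from the next, and then other GABAergic-like nuclei (1417 to 1541 CPM). Sst-like nuclei, at 99.9 to 382 CPM, were again low among neurons and overlapped astrocyte-like nuclei (215 to 306 CPM). The Sst-like mean was 6.20% of the highest class in this gene and 18.7% in Gabrb2, whereas in Gabra2 it was the highest.

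**Figure D2:**
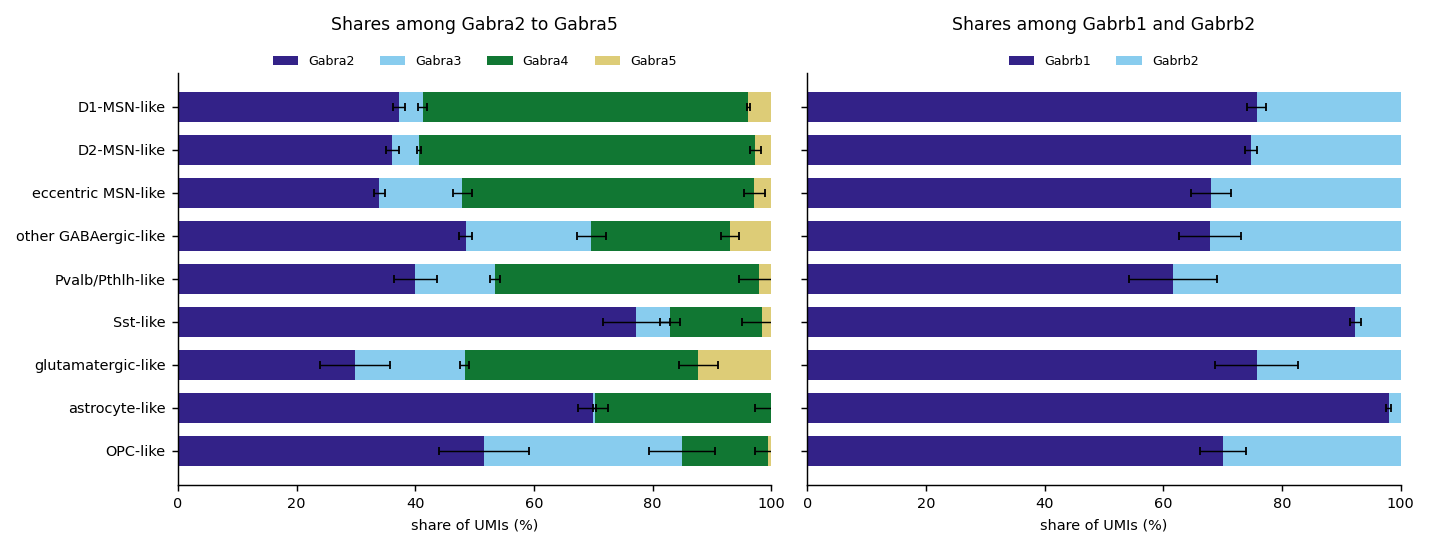
Mean share of UMIs (x axis, %) among the 4 α members (left) and the 2 β members (right) in 9 classes (y axis), leaving out oligodendrocyte-like and microglia-like nuclei. Error bars at the end of a segment are the SD of that segment's share over 4 libraries. Gabra2 takes 77.3% of the α UMIs in Sst-like and 70.0% in astrocyte-like nuclei, and Gabra4 takes 54.9% in D1-MSN-like nuclei.

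Among the α members' UMIs, the share of a given gene shifted with class, and these shares carry gene length as well as amount, so that only the same gene is compared between classes. Gabra4 made up 54.9% ± 0.203 of them in D1-MSN-like nuclei (SD, n = 4), and its share was 56.7% ± 0.886 in the D2 class and 49.2% ± 1.74 in the eccentric class. In other GABAergic-like nuclei it made up 23.4% ± 1.54 and in Sst-like nuclei 15.5% ± 3.38. Gabra3 made up 3.96% ± 0.683 in D1-MSN-like nuclei, 14.0% ± 1.66 in eccentric MSN-like, 21.2% ± 2.42 in other GABAergic-like and 33.4% ± 5.55 in oligodendrocyte precursor-like nuclei. Gabra2 took 77.3% ± 5.59 in Sst-like and 70.0% ± 2.55 in astrocyte-like nuclei. The Gabra4 share was 44.6% ± 3.44 in Pvalb/Pthlh-like nuclei, whose range overlapped that of the eccentric class, and 39.3% ± 3.30 in glutamatergic-like nuclei, whose range lay below those of the 3 MSN-like classes.

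Glial nuclei were read against RNA that may come from neurons. For the 18 general, D1 and D2 MSN markers, the median level was 4.05% of the highest MSN class in astrocyte-like, 2.98% in oligodendrocyte precursor-like, 3.16% in oligodendrocyte-like and 2.07% in microglia-like nuclei. Gabrb1 in astrocyte-like nuclei stood at 299% of its highest MSN class and Gabra2 at 83.2%, and 4 of 7 members exceeded the third highest marker there (9.02%). The second highest marker, Ppp1r1b, was at 45.2%, above Gabra4 (22.4%) and Gabrb2 (18.7%). In oligodendrocyte precursor-like nuclei Gabra3 reached 62.3%, and 3 members exceeded the third highest marker (21.5%). In oligodendrocyte-like nuclei every member was at 0.740% to 2.45% of its highest MSN class, and 0 exceeded the third highest marker (9.40%). In microglia-like nuclei members were at 0 to 3.41%, and 0 exceeded the third highest marker (10.6%). Whether the levels in those 2 classes come from neurons was not tested.

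The D1- and D2-MSN-like classes differed in 4 of 7 members by non-overlapping ranges, against 13.9% of 8949 genes with a mean of at least 10 CPM. Gabra2, Gabra4 and Gabrg3 were lower in D1-MSN-like nuclei, at 0.930, 0.874 and 0.827 times the D2-MSN-like mean, and Gabra5 was higher at 1.30 times. Gabra3, Gabrb1 and Gabrb2 overlapped, although within each library Gabra3 was lower and Gabrb1 higher in D1-MSN-like than in D2-MSN-like nuclei. Where nuclei were instead gated on Drd1 and Drd2 UMIs, 2 members had non-overlapping ranges. The share of all genes apart under that gate was not computed. Eccentric MSN-like and D1-MSN-like nuclei were apart in 7 of 7 members, against 35.5% of genes. Gabra3 and Gabrg3 were higher in eccentric MSN-like nuclei, at 2.99 and 1.97 times, and the other members lower, at 0.633 to 0.952 times the D1-MSN-like mean. Genes with many UMIs have narrow ranges, so these counts are no test of the family.

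D1-MSN-like nuclei fell into cluster 2, led by Ebf1 and Reln (621 to 914 nuclei per library), and cluster 5, led by Htr4 (234 to 604 nuclei). The ranges of 6 of 7 members did not overlap between them, against 17.8% of genes. Gabra3 differed most. In cluster 2 it was at 20.3 and 30.6 CPM with saline and 23.1 and 23.4 CPM with cocaine, and in cluster 5 at 51.0 and 62.2 CPM with saline and 56.6 and 55.6 CPM with cocaine. Cluster 5 thus held 2.32 times the mean Gabra3 level in cluster 2, and all 4 libraries showed it. Gabrg3 (1.32 times) and Gabrb2 (1.15 times) were also higher in cluster 5. Gabra5 was higher in cluster 2, with means of 40.6 ± 2.94 CPM and 27.5 ± 2.78 CPM (SD, n = 4), and Gabra2 and Gabra4 were higher there by 1.10 and 1.13 times. Gabrb1 overlapped.

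A larger contrast lay within D2-MSN-like nuclei, between cluster 1 (685 to 1010 nuclei per library) and the small cluster 13, led by Drd2 and Casz1 (69 to 100 nuclei). This pair was chosen after its values were seen. In cluster 1 Gabrb2 was at 350 and 329 CPM with saline and 334 and 360 CPM with cocaine, and in cluster 13 at 31.5 and 34.5 CPM with saline and 24.6 and 44.9 CPM with cocaine. The mean was 10.1 times higher in cluster 1, and 89 Gabrb2 UMIs were counted in cluster 13 in all. Gabrb1 was also higher in cluster 1, by 2.12 times, and Gabra4 by 1.40 times. Gabra3 (3.48 times), Gabra5 (1.83 times) and Gabrg3 (1.67 times) were higher in cluster 13. In all, 6 of 7 members had non-overlapping ranges, against 27.5% of genes, with Gabra2 the member that overlapped. Gabrb1 made up 93.2% ± 1.42 of the β members' UMIs in cluster 13, against 74.1% ± 1.12 in cluster 1.

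**Figure D3:**
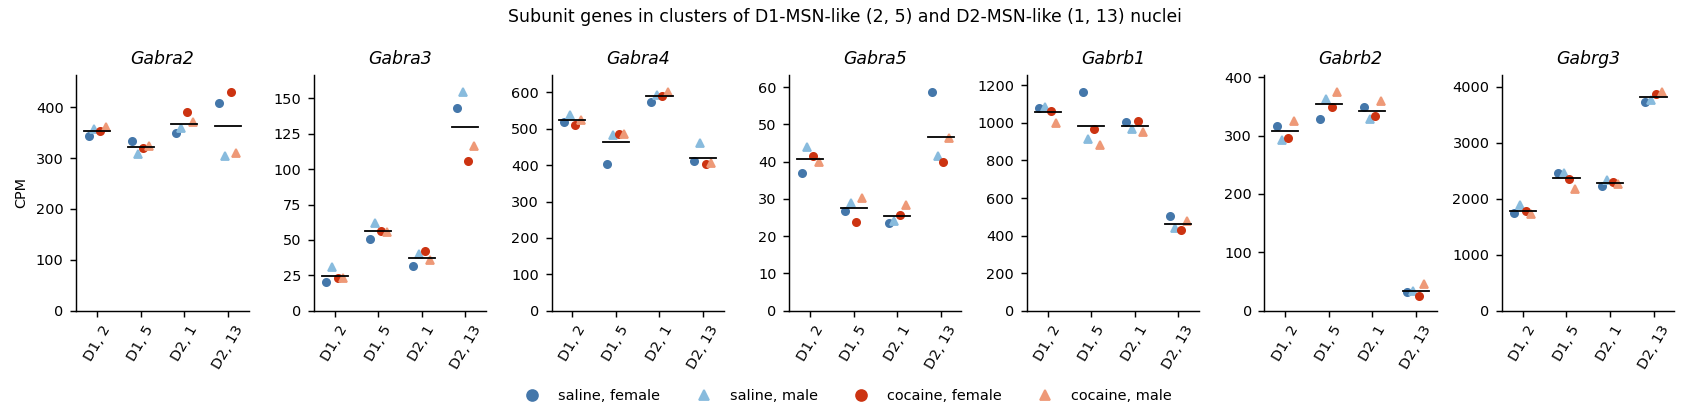
Level of each subunit gene (y axis, CPM from 0, own scale per gene) in D1-MSN-like clusters 2 and 5 and D2-MSN-like clusters 1 and 13 (x axis). Points are the 4 libraries and lines their means. Gabrb2 in cluster 13 lies between 24.6 and 44.9 CPM, below every other cluster, and Gabra3 there lies between 106 and 155 CPM, above every other cluster.

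Further subunit genes also differed in level by class. Gabrg1, a γ subunit known from glia and next to Gabra2 in the genome, was highest in astrocyte-like nuclei at 436 to 525 CPM and reached 264 to 441 CPM in Sst-like nuclei, against 59.1 to 87.9 CPM in D1-MSN-like nuclei. Gabrd, the δ subunit, was at 55.8 to 78.2 CPM in D1-MSN-like nuclei. Gabra6, Gabrp, Gabrq and the ρ genes Gabrr1, Gabrr2 and Gabrr3 reached at most 5.48 CPM in any class and library.

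Over the means of the 11 classes, on the log2(CPM + 1) scale, the members' profiles were compared with 11177 genes outside the family as a description. The most similar profiles were those of Cdh4 (Pearson r = 0.99) for Gabra2, Lin7a (0.99) for Gabra3, Slc26a8 (0.98) for Gabra4, Kcnip4 (0.98) for Gabra5, Trim37 (0.99) for Gabrb1, Atp2b2 (0.98) for Gabrb2 and Ccdc30 (0.97) for Gabrg3. The next 2 genes were Nebl and Rnft2 for Gabra2, Gdap1l1 and Bmerb1 for Gabra3, Palm and Gpr158 for Gabra4, Lin7b and Ltk for Gabra5, Sybu and Fry for Gabrb1, Ccdc30 and Ttc19 for Gabrb2, and Rgs7bp and Ccdc148 for Gabrg3. Within the family, Gabrb2 and Gabrg3 were most alike (0.96), then Gabra2 and Gabrb1 (0.95). All classes share the 4 libraries and their depth.

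After repeated cocaine no member passed the test in D1- or D2-MSN-like nuclei. In D1-MSN-like nuclei 0 of 7 members passed an adjusted p of 0.05 by edgeR's quasi-likelihood test, 0 had an unadjusted p under 0.05 and DESeq2 called 0, while 25 of 13283 genes (0.188%) were called. Gabra2 was at 341 and 335 CPM with saline and 340 and 348 CPM with cocaine, and its log2 fold change was 0.00 (95% interval -0.15 to 0.16). Gabra4 was at 487 and 513 CPM with saline and 501 and 511 CPM with cocaine, in the same order, with a log2 fold change of -0.01 (-0.16 to 0.15). Each of these pairs overlapped. Gabra3 was at 28.5 and 44.9 CPM with saline and 37.1 and 34.8 CPM with cocaine, so the saline libraries enclosed both cocaine libraries. Gabra5 was at 34.2 and 37.1 CPM with saline and 34.3 and 36.6 CPM with cocaine.

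Gabrb1 was at 1102 and 1007 CPM with saline and 1024 and 957 CPM with cocaine, a log2 fold change of -0.11 (-0.26 to 0.04), and the groups overlapped. Gabrb2 was at 320 and 324 CPM with saline and 318 and 343 CPM with cocaine. Gabrg3 was at 1931 and 2145 CPM with saline and 2019 and 1888 CPM with cocaine, a log2 fold change of -0.08 (-0.26 to 0.10). Over all 7 members the intervals ran from -0.37 to 0.31, the widest being that of Gabra3. The median log2 fold change was -0.03, against 0.00 over all genes tested. Within D1-MSN-like nuclei, cluster 2 had 0 of 7 members called (239 genes called, 1.92%) and cluster 5 had 0 of 7 (11 genes, 0.0921%), with 0 unadjusted p under 0.05 in either and 0 calls by DESeq2.

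D2-MSN-like nuclei gave the same count, 0 of 7 members, with 0 at an unadjusted p under 0.05, 0 by DESeq2 and 0.118% of genes called. Gabra2 was at 354 and 354 CPM with saline and 393 and 366 CPM with cocaine, and its groups did not overlap, yet its log2 fold change of 0.06 (-0.09 to 0.20) had an adjusted p of 0.847. Gabra4 was at 559 and 581 CPM with saline and 579 and 585 CPM with cocaine, and Gabra3 at 41.9 and 51.4 CPM and 46.3 and 42.5 CPM. Those of Gabra3 and Gabra4 overlapped. Gabra5 was at 26.8 and 25.9 CPM with saline and 26.7 and 29.9 CPM with cocaine. Gabrb1 was at 958 and 916 CPM with saline and 972 and 912 CPM with cocaine, and Gabrb2 at 321 and 299 CPM and 313 and 333 CPM. Gabrg3 was at 2369 and 2487 CPM and 2395 and 2402 CPM, so the saline libraries of Gabrg3 and the cocaine libraries of Gabrb1 lay on either side of the others. The intervals ran from -0.35 to 0.31.

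The difference between the cocaine effects in D1- and D2-MSN-like nuclei was tested with each library as a block, and 0 of 7 members were called, with 0 at an unadjusted p under 0.05, against 0.106% of genes. DESeq2 was not run for it. It was largest for Gabra5 (-0.08, 95% interval -0.35 to 0.19) and Gabra3 (0.07, -0.18 to 0.32) on the log2 scale. For Gabrg3 it was -0.02 (-0.11 to 0.08). None of these intervals excluded 0.

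Pvalb/Pthlh-like nuclei held the single called member. Gabrb1 was at 706 and 588 CPM with saline and 453 and 480 CPM with cocaine, so both cocaine libraries lay below both saline libraries. Its log2 fold change was -0.53 (SE 0.12, 95% interval -0.76 to -0.29, adjusted p = 0.00592 by edgeR), 1 of 6 members tested, where 1.82% of genes were called. The class also held nuclei that fell in a Vip-led cluster at a finer resolution, 6 and 3 nuclei with saline (4.88% and 2.36% of the class) and 49 and 20 nuclei with cocaine (33.1% and 18.7%). Gabrb1 in those nuclei was at 250 and 145 CPM with saline and 267 and 358 CPM with cocaine, below all values of the remaining nuclei. Without them Gabrb1 was at 734 and 600 CPM with saline and 580 and 521 CPM with cocaine, its log2 fold change was -0.34 (SE 0.11) with an adjusted p of 0.647, and 0 of 8394 genes were called (0%). The groups still did not overlap, and the unadjusted p was 0.00701. Gabrb2, which was higher in the Vip-led nuclei (417 to 1161 CPM), went from a log2 fold change of 0.15 to -0.39 (SE 0.13, adjusted p = 0.647) when they were left out, and of 6 members tested, 3 then had an unadjusted p under 0.05, as did 6.75% of all genes: Gabrb1, Gabrb2 and Gabra4. Over 11 alternatives, 3 of which passed the threshold, the value ranged from -0.66 to -0.34 and the adjusted p from 3.2e-04 to 1.00. It was not called without the saline female library (-0.39), the cocaine female library (-0.51) or the saline male library (-0.66). Those fits also had no sex term, and leaving out that term alone, with every library kept, ended the call too.

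**Figure D4:**
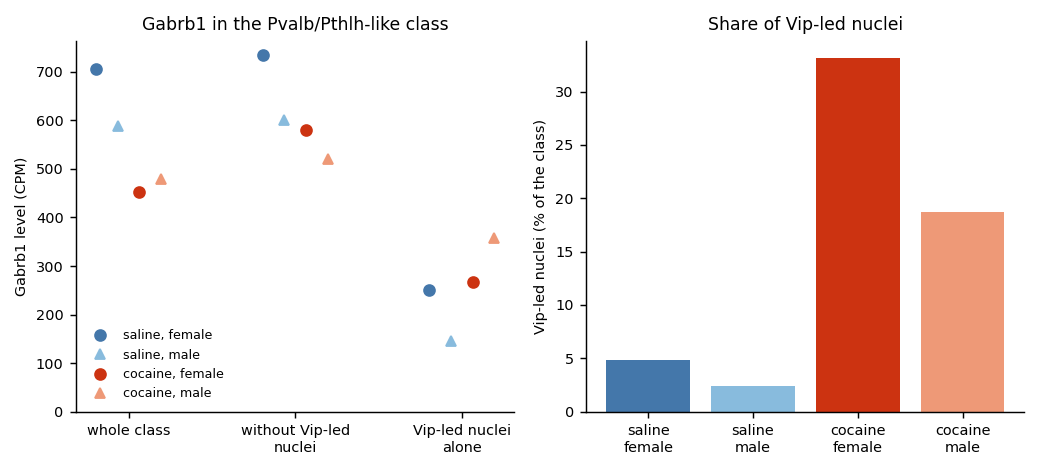
Left, Gabrb1 level (y axis, CPM from 0) in each library for the whole Pvalb/Pthlh-like class, for the class without nuclei of the Vip-led cluster and for those nuclei alone. Right, the Vip-led nuclei as a percentage of the class in each library (bars, from 0). The Vip-led share is 33.1% and 18.7% in the cocaine libraries and 4.88% and 2.36% in the saline libraries, and Vip-led nuclei hold 145 to 358 CPM of Gabrb1.

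In the other classes 0 members were called by edgeR and 0 by DESeq2. Eccentric MSN-like nuclei had 0 of 7 called and 1 at an unadjusted p under 0.05, with 0.2% of genes called. This was Gabrb1, at 851 and 624 CPM with saline and 590 and 619 CPM with cocaine, where the saline female library was the high one. Its log2 fold change was -0.29 (-0.52 to -0.07, adjusted p = 0.442), and without the saline male library it was -0.50 with an adjusted p of 3.2e-04, a comparison that left the saline female library as the only control. Without the saline female library it was -0.08 (adjusted p = 0.937). Other GABAergic-like (0% of genes called), glutamatergic-like (0%), astrocyte-like (1.36%), oligodendrocyte precursor-like (0.142%) and Sst-like nuclei (0.441%) had 0 members called and 0 at an unadjusted p under 0.05. In Sst-like nuclei Gabrg3 was at 382 and 99.9 CPM with saline and 230 and 266 CPM with cocaine, and without the saline female library its log2 fold change moved from 0.09 to 1.26 (adjusted p = 0.0150). Glutamatergic-like intervals were wide, from -1.52 to 0.73 over the 7 members. In astrocyte-like nuclei, where Gabrb1 is highest, its log2 fold change was 0.01 (-0.17 to 0.20).

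Oligodendrocyte-like nuclei had 0 of 5 tested members called (1.27% of genes), but 4 had an unadjusted p under 0.05, as did 10.8% of all genes, and all 5 values were above 0, with a median log2 fold change of 0.82 against 0.00 over all genes. Gabrb2 was at 2.56 and 2.94 CPM with saline and 6.23 and 6.62 CPM with cocaine, with a log2 fold change of 1.17 (SE 0.47, adjusted p = 0.258). These levels are among the low ones given above, whose source was not tested. The 18 MSN markers summed to 137 and 185 CPM with saline and 205 and 274 CPM with cocaine in the same nuclei, so they were higher with cocaine too, and their part in the members' values was not tested. In astrocyte-like nuclei the same markers summed to 657 and 572 CPM with saline and 1167 and 1052 CPM with cocaine. These sums include Eya1, which was at 331 CPM over all astrocyte-like nuclei and at most 0.328 CPM in an MSN class.

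**Figure D5:**
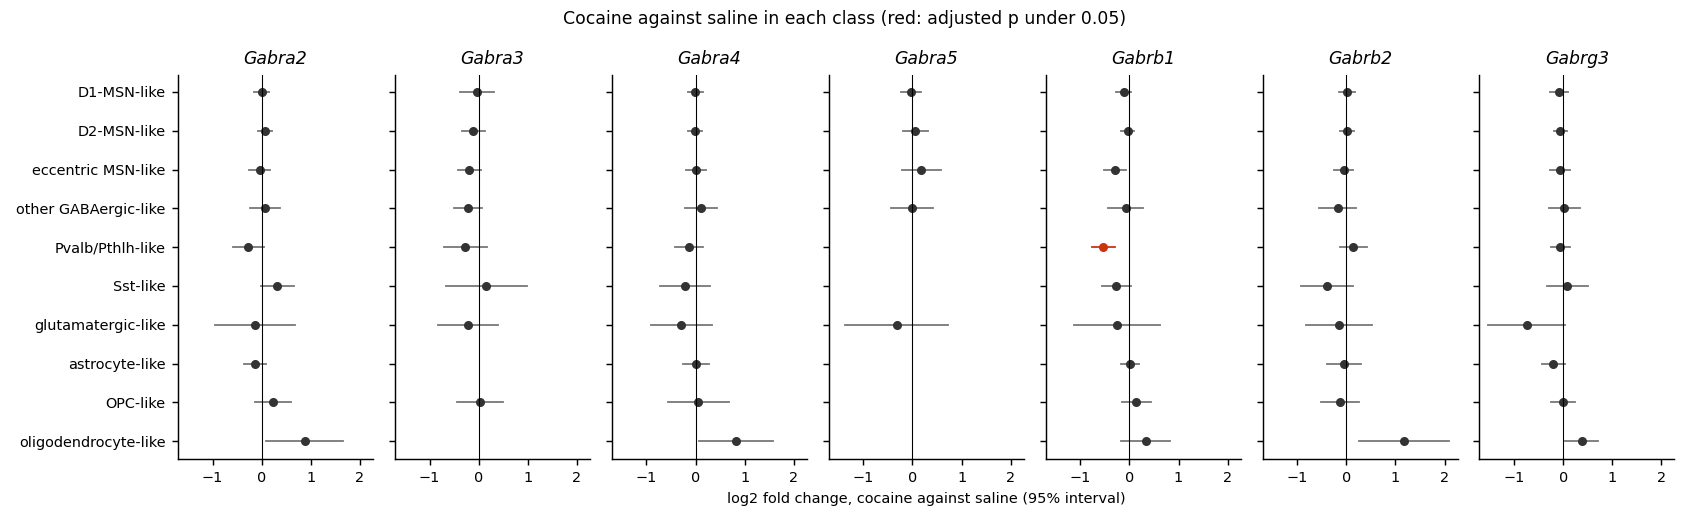
Log2 fold change of each subunit gene, cocaine against saline (x axis), in 10 classes (y axis), from edgeR with a sex term. Points are estimates from 2 against 2 libraries and lines their 95% intervals, with no point where a gene was too low to be tested. The single red point, with an adjusted p under 0.05, is Gabrb1 in Pvalb/Pthlh-like nuclei at -0.53, and the D1- and D2-MSN-like intervals stay between -0.37 and 0.31.

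The other genes of the GABA pathway, 32 listed of 33, gave few calls as well. They comprise the other subunits, anchoring and trafficking proteins, enzymes and transporters of GABA, the metabotropic receptor genes Gabbr1 and Gabbr2 and the chloride transporters Slc12a2 and Slc12a5. In D1-MSN-like nuclei 0 of 25 tested were called by edgeR and by DESeq2, with 5 at an unadjusted p under 0.05, against 8.48% of all genes. In D2-MSN-like nuclei 0 of 25 were called as well, with 2 at such a p, against 9.18% of all genes. Calls were 1 of 19 in astrocyte-like nuclei and 1 of 25 in Pvalb/Pthlh-like nuclei, and 0 in the other 9 classes.

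In astrocyte-like nuclei Slc6a11, the GABA transporter GAT-3, was at 419 and 429 CPM with saline and 245 and 230 CPM with cocaine. It fell by 0.87 on the log2 scale (SE 0.11, adjusted p = 3.5e-11 by edgeR) and the groups were far apart, but DESeq2 gave an adjusted p of 0.194, the value without the cocaine male library was -0.82 (0.0513), and it was -0.19 (0.910) at a finer clustering resolution. At that resolution the class split into 1248 nuclei, which that value describes, and 483 nuclei led by Itih3, Agt and Slc7a10 that stayed unnamed and were left out of it. The 483 nuclei made up 43.3% and 26.0% of the class with saline and 26.9% and 16.0% with cocaine. Slc6a11 in them was at 783 and 1104 CPM with saline and 560 and 661 CPM with cocaine, without overlap, against 149 and 178 CPM and 141 and 150 CPM in the 1248. The part of these shares in the value for the whole class was not tested. The adjusted p ranged from 3.3e-11 to 0.910 over 12 alternatives, 9 of which kept the call. The summed MSN markers of these nuclei, Eya1 among them, are given above. The spread in this class was borrowed entirely across genes, and without the sex term Slc6a11 had an adjusted p of 0.0498 by edgeR. In Pvalb/Pthlh-like nuclei Gabbr2, a subunit of the GABA-B receptor, was at 207 and 168 CPM with saline and 314 and 283 CPM with cocaine, a log2 fold change of 0.62 (SE 0.14, adjusted p = 0.00667). Without the Vip-led nuclei that value was -0.06 (adjusted p = 0.972). Leaving out the saline female (0.78), saline male (0.48) or cocaine female library (0.51) also ended the call. These fits had no sex term, and dropping that term alone ended the call as well.

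Gabrg1 was the subunit gene outside the 7 members that was called in a D1 cluster. In cluster 2 it was at 78.6 and 86.0 CPM with saline and 64.6 and 68.1 CPM with cocaine, without overlap. Its log2 fold change there was -0.34 (SE 0.10, adjusted p = 0.0343 by edgeR), 1 of 25 pathway genes tested. In cluster 5 it was -0.58 (SE 0.18) with an adjusted p of 0.422, and in all D1-MSN-like nuclei -0.40 (SE 0.10) with an adjusted p of 0.300. Without a filter on low counts edgeR called Gabrg1 in both, at -0.57 (adjusted p = 0.00407) and -0.40 (adjusted p = 0.00310) in that order. In cluster 5 without the saline male library, which left the saline female library as the only control, its log2 fold change was -1.05. In D2-MSN-like nuclei it was 0.04 (-0.17 to 0.25), and the tested difference between D1- and D2-MSN-like nuclei was -0.44 (SE 0.09, adjusted p = 0.0579), which missed the threshold but passed it with library size alone (-0.46, adjusted p = 0.0379) and without the cocaine male library (-0.47, adjusted p = 0.0160). None of 9 alternatives kept the cluster 2 call, with values from -0.40 to -0.28 and adjusted p from 0.0553 to 1.00, and these include each library left out in turn.

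Sex was a term of the fit, and Gabra3 is X-linked. Females and males did not differ past the threshold in any of the 7 members in D1-MSN-like, D2-MSN-like, eccentric MSN-like or other GABAergic-like nuclei, with 0 at an unadjusted p under 0.05 in each and 0.105%, 0.464%, 0.131% and 0.066% of genes called. In glutamatergic-like (0.0579% of genes called) and Pvalb/Pthlh-like nuclei (0.227%) there were also 0 calls and 0 members at an unadjusted p under 0.05. In the other classes tested 0 members were called as well, but some had an unadjusted p under 0.05. In astrocyte-like nuclei (1.46% of genes called) these were 3 of 5 members, where 10.4% of all genes had such a p. Gabrg3 was higher in females there by 0.32 on the log2 scale (SE 0.12, adjusted p = 0.170 by edgeR), while the female minus male values were -0.36 for Gabra4 (SE 0.14, adjusted p = 0.225 by edgeR) and -0.39 for Gabrb2 (SE 0.18, adjusted p = 0.380 by edgeR). In Sst-like nuclei (0.212% of genes called) 1 of 6 had such a p, Gabrg3, with a female minus male value of 0.81 (SE 0.21, adjusted p = 0.0540 by edgeR), but its libraries overlapped between the sexes, at 382 and 230 CPM in females and 99.9 and 266 CPM in males. It was Gabrb1 in oligodendrocyte precursor-like (0.39, adjusted p = 0.381 by edgeR, 0.328% of genes called) and oligodendrocyte-like nuclei (0.55, adjusted p = 0.243 by edgeR, 6.09% of genes called). Over all nuclei, which mix the classes, it was Gabra4 (-0.28, adjusted p = 0.115 by edgeR, 0.157% of genes called). DESeq2 was not run for sex.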

How the data were processed

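Per the labels, nuclei were sorted and run with 10x Genomics 3′ v3 chemistry, 12500 loaded per library on average. The authors deposited UMI counts per gene and nucleus, whole numbers without normalization, made with Cell Ranger 6.1.2 per the file headers and on build rn7 per the submitters' processing notes. No source used here gives the annotation or says whether introns were counted, and reads of overlapping genes can be split. Promoters, gene order and strands come from RefSeq GRCr8, which is not the build of the counts.

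Nuclei passed with 200 or more genes and no more than 5% mitochondrial UMIs, and the 4.97% to 5.81% with the highest Scrublet scores per library were removed as doublets (Scrublet's own threshold marked 3.34% to 4.50%). In scanpy 1.11.5, 2000 variable genes without subunit, immediate-early, mitochondrial and sex-linked genes, scaled within libraries, gave 30 components and Leiden clusters (leidenalg 0.10.2, resolution 0.5). Clusters were named at a marker score of 1.0 or more (log2), or, for MSN, at 0.5 or more, with a gap of 0.5 between the D1 and D2 scores. These limits were chosen after seeing the data. Of 23 clusters, 4 with 560 nuclei stayed unnamed.

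UMIs summed per library and class were fitted with edgeR 4.0.16 (TMM, filterByExpr, sex and treatment, quasi-likelihood test), with Benjamini-Hochberg adjustment over all genes of a class. The sex term pairs the libraries that share a replicate number, 1 being female and 2 male, and leaves 1 residual degree of freedom, so the spread is largely borrowed across genes. In the astrocyte-like, oligodendrocyte-like, Sst-like and microglia-like fits it was borrowed entirely, as the prior degrees of freedom were infinite. The fit was also run on simulated counts with the same dispersion for every gene and no sex effect. That is unlike these libraries, so it is no check of the calls. With 2 against 2 libraries an exact permutation test cannot go below p = 0.333, and p-values measure only the spread between pooled libraries. DESeq2 1.42.0 was an alternative. Fits of a class that left out a library had no sex term. The 7 members were named in every class, with each library's value in D1- and D2-MSN-like nuclei, where the level was highest and where a call was made; other subunits above 100 CPM (some are not reported here), a fixed pathway list and the 3 most similar genes were named too. Members and lists were chosen with earlier results of these data known.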

Additional observations from a re-analysis of the deposited data

Results flagged for a closer look

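Within each sex the cocaine and saline libraries give 1 ratio. All 7 members were compared in this way in each of 11 classes. For 8 member and class pairs females and males moved in opposite directions, each with a 95% counting interval that excluded 0. Genes with many UMIs have narrow counting intervals, and no share of all genes is given for comparison, so this count is no test of the family. The difference between the sexes was not tested, since each sex has 1 library per treatment, and counting intervals leave out the spread between animals. In D1-MSN-like nuclei the log2 ratio of Gabra3 was 0.38 in females and -0.36 in males, a difference of 0.74, and that of Gabrg3 was 0.06 and -0.18, a difference of 0.25. Cluster 5, the D1 cluster with more Gabra3 and Gabrg3, held 234 and 604 nuclei with saline and 551 and 451 with cocaine. Cluster 2 held 621 and 757 nuclei with saline and 826 and 914 with cocaine. Gabrg3 was at 2456 and 2460 CPM with saline and 2348 and 2178 CPM with cocaine in cluster 5. In cluster 2 it was at 1740 and 1885 CPM with saline and 1786 and 1727 CPM with cocaine. The part of this mix in the ratios was not tested. In other GABAergic-like nuclei Gabrb1 gave -0.30 in females and 0.23 in males, a difference of -0.53, and Gabrb2 gave 0.15 and -0.43, a difference of 0.57. The widest differences stood in the classes with the fewest nuclei. In glutamatergic-like nuclei they were 1.30 for Gabra2, -2.05 for Gabra5 and -1.27 for Gabrb1, with 30 nuclei in the saline female library. In Sst-like nuclei Gabrg3 gave -0.73 in females and 1.40 in males, a difference of -2.13, with 39 nuclei in that library.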

How the results depend on the processing

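Counts of called members kept their value in 142 of 152 comparisons with an alternative. In Pvalb/Pthlh-like nuclei the 1 call became 0 with DESeq2, library size alone (-0.48, adjusted p = 0.0973), no doublets removed (-0.46), no sex term, so that the replicate block is dropped (-0.53, adjusted p = 0.0826), and without the Vip-led nuclei, an alternative chosen after seeing the data; leaving out single libraries gave 0 to 1. In eccentric MSN-like and Sst-like nuclei the 0 calls became 0 to 1 when single libraries were left out. The replicate block changed no other call of a member, and the fits of a class that left out a single library were without it too. Pathway calls went from 1 to 0 in astrocyte-like nuclei with DESeq2 and at resolution 1.0, and in Pvalb/Pthlh-like nuclei with DESeq2, no doublets removed, no block and no Vip-led nuclei. In D1 cluster 2 they went from 1 to 0 with DESeq2, median-ratio size factors, no filter and no block. Without a filter they went from 0 to 1 in D1-MSN-like nuclei and D1 cluster 5, with Gabrg1 the gene called in both. Leaving out single libraries gave 0 to 1 in astrocyte-like, Pvalb/Pthlh-like and eccentric MSN-like nuclei and D1 cluster 5, and 0 in D1 cluster 2. Gating nuclei on Drd1 and Drd2 left 2 of the 4 members apart between D1 and D2, Gabra4 and Gabra5, while Gabra2 and Gabrg3 overlapped. The share of all genes apart under the gate was not computed, and the D1 gate also took in 662 eccentric MSN-like nuclei.

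Signs of uncalled values near 0 reversed, with the cause not tested. In D1-MSN-like nuclei these were Gabra5 by gating (0.0361), Gabrb2 (-0.00371) and Gabra2 (-0.00691) without doublet removal, Gabra2 with DESeq2 (-0.000682) and without a filter (-0.00174), and Gabra4 by library size (0.0173). In D2-MSN-like nuclei they were Gabrb2 (-0.0681) and Gabra4 (0.0635) by gating, and Gabrb1 (0.00750) and Gabra4 (0.0305) by library size. Leaving out single libraries reversed further values, most often without the saline or cocaine male library. The D1-MSN-like ranges were -0.0891 to 0.0194 for Gabra5, -0.340 to 0.310 for Gabra3, -0.0237 to 0.0463 for Gabrb2, -0.0168 to 0.0177 for Gabra2 and -0.0410 to 0.0261 for Gabra4. The D2-MSN-like ranges were -0.0131 to 0.132 for Gabra5, -0.253 to 0.0438 for Gabra3, -0.0300 to 0.0673 for Gabrb2, -0.00187 to 0.120 for Gabra2, -0.0872 to 0.0237 for Gabrb1 and -0.0416 to 0.0177 for Gabra4. Gabbr2 in Pvalb/Pthlh-like nuclei reversed without the Vip-led nuclei (-0.0593). Of the mean levels under alternatives, 24 moved by more than their SD and 403 did not, and 13 of the 24 were without doublet removal. Of the shares of UMIs, 96 moved and 699 did not; 53 of the 96 came from the denominator of all subunit genes, which lowers every share, and 24 from no doublet removal. Other GABAergic-like and Pvalb/Pthlh-like nuclei had no named cluster under some clustering alternatives and give no value there.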
